A study of Mus musculus with 10 samples.

Results

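Mitosis genes are a set of 39 named genes whose products drive cells from the start of chromosome condensation to cytokinesis, and they were read in T cells and cDC2s from mouse spleen. They were picked by gene symbol from a list that was drawn up with earlier results of these data known, although the rule itself uses no measured value, and all 39 were present among the 45706 genes of the deposited table. T cells of 2 genotypes were sequenced, with 2 libraries each: Cd47ΔT, which as a name stands for loss of Cd47 in T cells, and Cd47f/f, which stands for floxed Cd47 alleles and serves as the control. The cDC2s, type 2 conventional dendritic cells, which present antigen to helper T cells and express SIRP alpha, the receptor of CD47, came from the same 2 genotypes with 3 libraries each. CD47 is a surface protein that restrains engulfment of a cell by phagocytes, and the study's title places the work in survival of peripheral T cells and their necroptosis. The sources used here do not give the Cre line, the exons removed, the ages of the mice or how the cells were isolated.

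Mitosis begins when CDK1, bound to a cyclin A or B partner, phosphorylates the proteins that condense chromosomes, build the spindle and open the nuclear envelope. The spindle checkpoint then holds the cell until every kinetochore is attached, after which the anaphase-promoting complex with CDC20 marks cyclin B and securin for destruction and separase cuts the cohesin that holds sister chromatids together. Transcripts of these genes accumulate in G2 and mitosis and are low in resting cells, because a repressor complex of MuvB proteins with E2F4 and p130 occupies their promoters there, while B-MYB, FOXM1 and NF-Y act on the same promoters in dividing cells. Most splenic T cells of a healthy mouse are resting, whereas splenic conventional dendritic cells and their local precursors divide at a steady rate.

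Values are TPM, transcript abundances scaled per length and to an equal total per library. They hold no trace of sequencing depth, which therefore remains unknown for every library. The kit was TruSeq stranded mRNA for T cells and SMART-seq stranded for cDC2s, so levels of the 2 cell types cannot be told apart from the kits, whereas both genotypes of a cell type share a kit. Whether the libraries of a group stem from different animals is not stated in the labels, and the p-values thus reflect spread between libraries that may be technical. The targeted gene followed the labels, with Cd47 at 40.4 and 51.7 TPM in Cd47ΔT T cells, against 138 and 233 TPM in Cd47f/f T cells. In cDC2s Cd47 stood at 151, 159 and 135 TPM in Cd47ΔT mice, against 140.2, 144 and 162 TPM in Cd47f/f mice. Cd3e, a chain of the T cell receptor complex, was at 514 and 492 TPM in Cd47ΔT T cells and at 414 and 423 TPM in Cd47f/f T cells, while Cd3g was at 0 in all 6 cDC2 libraries. Of the cDC2 libraries, Cd47f/f library 3 was the least like the rest, with Pearson r of 0.929 to 0.937 to the others over the genes tested, against 0.945 or more for every other pair.

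In T cells the mitosis genes rose almost as a block in Cd47ΔT mice. A gene was called when limma's Benjamini-Hochberg adjusted p, over all genes tested on log2(TPM + 1), was under 0.05. By this rule 38 of the 39 mitosis genes were called higher in Cd47ΔT T cells, where 8.50% of the 12453 genes tested were called higher, and 0 of 39 were called lower, where 0.875% of all genes were (9.37% in either direction). All 39 were above 0 on the log2 fold change scale, against 65.4% of all genes. All 39 had both Cd47ΔT values above both Cd47f/f values, a separation seen in this direction for 37.0% of all genes tested and in the other direction for 11.9%. Their median log2 fold change, Cd47ΔT over Cd47f/f, was 1.83, against 0.10 for all genes (a difference of 1.73), and it ran from 0.95 for Ndc80 to 2.30 for Ube2c. On the TPM scale itself the median ratio of group means was 4.25, with 38 genes at 2-fold or more and 23 at 4-fold or more. Summed over the 39 genes, the level was 1152 and 1018 TPM in the Cd47ΔT libraries, against 267 and 356 TPM in the Cd47f/f libraries. A larger share of dividing cells and more mitotic RNA per dividing cell cannot be told apart in such bulk libraries. Most marker lists of other cell types were also higher in these Cd47ΔT libraries, as given below, and the part of such cells was not tested.

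All 39 genes passed the filter on low values (1 TPM reached in 2 or more of the T cell libraries), and 37 passed it in both Cd47f/f libraries by themselves, the exceptions being Ttk and Espl1. The calls depend on that filter. With no filter 20437 genes were tested and 15 were called, among them 1 of the 39, Cdk1 (adjusted p = 0.0408), although the unadjusted p was under 0.05 for 39 of 39. With the filter 21.6% of all genes had an unadjusted p under 0.05, and 18.4% had one and were higher in Cd47ΔT T cells.

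**Figure D1:**
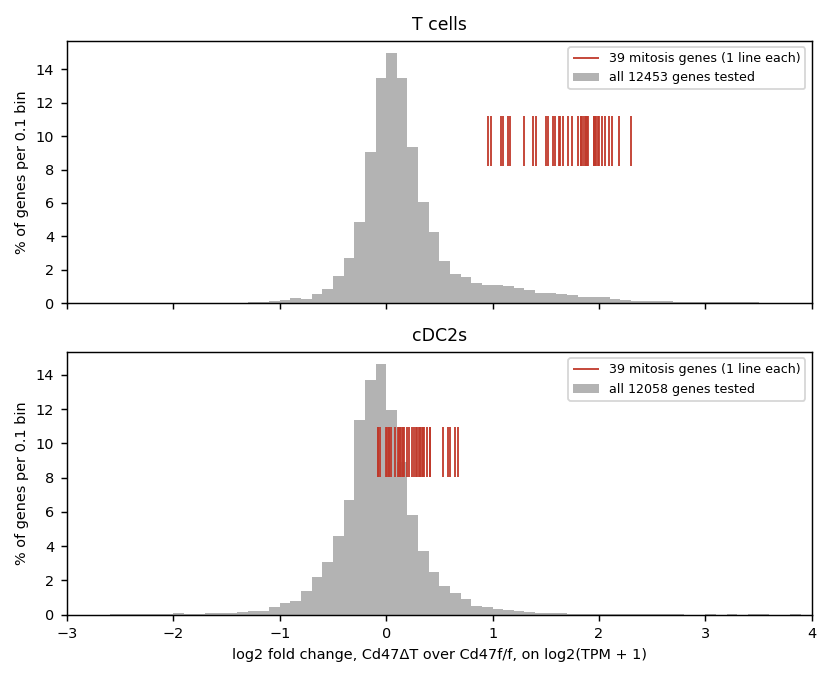
Distribution of the log2 fold change (Cd47ΔT over Cd47f/f, horizontal axis) of all genes tested as grey bars, in percent of genes per bin, with each mitosis gene as a red line, in T cells (top) and cDC2s (bottom). In T cells all 39 lines lie at 0.95 or above, where 9.62% of all genes lie, and in cDC2s the lines run from -0.08 to 0.67.

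The promoters of these genes are known for 2 short elements that recur near the start site: the NF-Y box CCAAT, bound by NF-Y, and the cell cycle genes homology region (CHR) TTTGAA with its variant TTTAAA, bound by MuvB complexes. RefSeq promoter windows (build GRCm38.p6), which run from 250 bases before to 50 bases after the annotated start, were given for 34 of the 39 genes and were searched for these letters on both strands. An NF-Y box was present in 27 of the 34 (79.4%), against 37.9% of the windows of all 27025 genes, and at least 2 boxes in 19 (55.9%), against 12.2%. The CHR letters were present in 26 (76.5%), against 18.1%, and the variant in 9 (26.5%), against 13.2%. Both an NF-Y box and a CHR were present in 23 (67.6%), against 7.12%. A run of 150 bases that ends 25 bases after the start is given on the gene's own strand for 9 genes of different roles, with NF-Y boxes and CHR letters of either strand in capitals (ATTGG and TTCAAA are the same letters read on the other strand). The runs lie at chr10:69352888-69353037 (Cdk1, minus strand), chr9:70421530-70421679 (Ccnb2, minus), chr7:122159310-122159459 (Plk1, plus), chr9:83834564-83834713 (Ttk, plus), chr2:69206189-69206338 (Spc25, minus), chr11:40733413-40733562 (Hmmr, minus), chr4:118437319-118437468 (Cdc20, minus), chr2:164769804-164769953 (Ube2c, plus) and chr11:99024165-99024314 (Top2a, minus).
Cdk1: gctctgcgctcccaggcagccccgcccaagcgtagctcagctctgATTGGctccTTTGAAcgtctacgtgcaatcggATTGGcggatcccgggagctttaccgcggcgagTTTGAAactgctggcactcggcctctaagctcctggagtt
Ccnb2: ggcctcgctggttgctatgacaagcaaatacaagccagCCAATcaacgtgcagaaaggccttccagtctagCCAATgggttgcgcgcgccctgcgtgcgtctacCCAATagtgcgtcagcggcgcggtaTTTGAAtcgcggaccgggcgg
Plk1: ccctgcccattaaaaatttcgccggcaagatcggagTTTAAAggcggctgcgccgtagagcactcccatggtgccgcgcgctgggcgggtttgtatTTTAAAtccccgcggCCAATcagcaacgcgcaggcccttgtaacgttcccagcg
Ttk: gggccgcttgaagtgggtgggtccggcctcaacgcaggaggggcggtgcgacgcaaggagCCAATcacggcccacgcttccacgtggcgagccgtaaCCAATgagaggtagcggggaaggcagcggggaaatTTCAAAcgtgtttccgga
Spc25: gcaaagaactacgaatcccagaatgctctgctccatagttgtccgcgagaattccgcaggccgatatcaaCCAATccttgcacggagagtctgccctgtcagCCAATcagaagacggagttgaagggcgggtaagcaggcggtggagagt
Hmmr: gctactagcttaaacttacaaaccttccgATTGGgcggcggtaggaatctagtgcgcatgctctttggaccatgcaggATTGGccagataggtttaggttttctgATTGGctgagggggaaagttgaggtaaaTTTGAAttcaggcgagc
Cdc20: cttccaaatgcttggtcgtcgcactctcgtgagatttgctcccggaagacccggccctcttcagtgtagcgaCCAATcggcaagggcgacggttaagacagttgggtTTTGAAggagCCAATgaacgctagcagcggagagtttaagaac
Ube2c: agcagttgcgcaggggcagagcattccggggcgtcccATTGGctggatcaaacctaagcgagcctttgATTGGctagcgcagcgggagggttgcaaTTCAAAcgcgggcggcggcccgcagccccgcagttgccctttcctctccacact
Top2a: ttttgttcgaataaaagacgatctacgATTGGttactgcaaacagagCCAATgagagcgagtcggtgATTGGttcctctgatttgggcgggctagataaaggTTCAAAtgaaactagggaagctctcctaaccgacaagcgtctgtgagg

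In these runs the NF-Y boxes stand upstream and a CHR lies near the start in most of the genes shown, as in Hmmr, where a row of boxes leads to TTTGAA just past the start. Runs were also made for Cdca8, Kif23 and Ndc80 and are not printed. Those of Cdca8 and Kif23 held both elements, and that of Ndc80 held neither. Plk1 carries the variant TTTAAA in place of TTTGAA in the run shown. Over the 34 windows, 11 of 37 pairs of neighbouring NF-Y boxes (29.7%) were spaced 31 to 35 bases apart, against 8.54% of 4659 such pairs in all promoters. Of 31 CHR matches in mitosis gene windows, 23 (74.2%) lay within 40 bases of the start, against 20.7% of 5632 in all windows. The E2F-like core GCGGGAA was found in 1 window (2.94%), that of Ncapg, against 4.66% of all windows. In Cdca8 a CHR and an NF-Y box share bases. The windows of Mad2l1, Nuf2 and Nusap1 held none of these letters. In T cells Nuf2 and Nusap1 stood at log2 fold changes of 1.97 and 2.03, above the median of the set, and Mad2l1 at 1.10, below it. These matches describe letters in a window and are not evidence of binding.

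**Figure D2:**
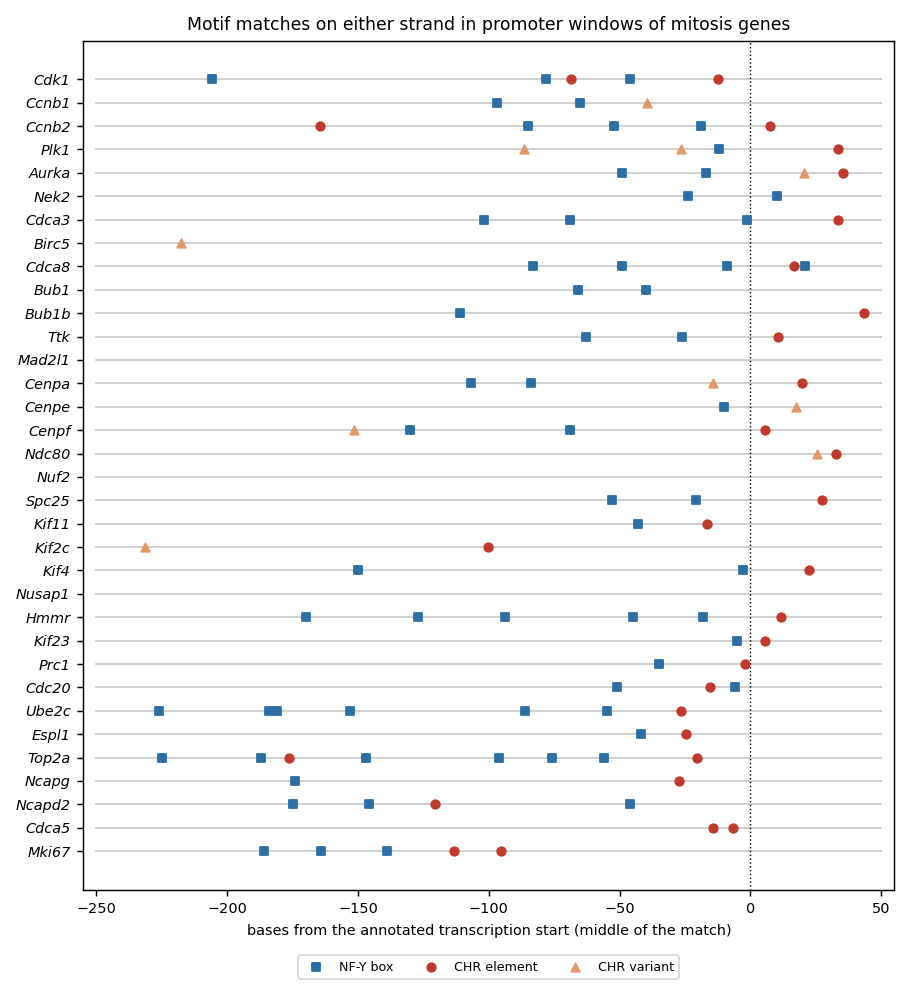
Positions of NF-Y boxes (squares), CHR (circles) and its variant (triangles) in the promoter windows of the 34 mitosis genes with a window, 1 line per gene, in bases from the annotated start. The 23 CHR within 40 bases of the start form a column around it, with most NF-Y boxes to the left.

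The kinase that starts mitosis and its cyclins rose in Cd47ΔT T cells, with 4 of 4 genes called. Cdk1 (ENSMUSG00000019942, chromosome 10, 69335146 to 69352938, minus strand, GRCm38), the catalytic subunit, was at 60.4 and 62.0 TPM in Cd47ΔT T cells, against 13.5 and 13.6 TPM in Cd47f/f T cells (log2 fold change 2.09 ± 0.14 SE, adjusted p = 0.00217). Ccna2, cyclin A2 of S phase and early mitosis, was at 40.9 and 32.6 TPM in Cd47ΔT T cells, against 7.56 and 9.40 TPM in Cd47f/f T cells. Ccnb1, cyclin B1, was at 22.4 and 20.8 TPM in Cd47ΔT T cells, against 5.40 and 6.09 TPM in Cd47f/f T cells. The genotypes stood far apart for each of these genes, and for Cdk1 the libraries within a genotype almost coincided. Ccnb2, cyclin B2, was at 45.2 and 38.3 TPM in Cd47ΔT T cells and at 7.86 and 11.8 TPM in Cd47f/f T cells. Its pseudogene copy Ccnb2-ps reached 5.57 TPM in a library, so the split of reads between the copies is uncertain.

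The 4 genes of mitotic entry and the centrosome were all called higher, with a median log2 fold change of 1.54, against 2.0 for the cyclins and Cdk1. Plk1, which matures centrosomes and triggers entry, was at 18.9 and 14.2 TPM in Cd47ΔT T cells, against 4.61 and 5.14 TPM in Cd47f/f T cells (log2 fold change 1.57 ± 0.22, adjusted p = 0.0120). Aurka, the centrosomal Aurora kinase, was at 14.3 and 10.3 TPM in Cd47ΔT T cells and at 3.94 and 4.86 TPM in Cd47f/f T cells. Both kinases were higher in Cd47ΔT library 1 than in library 2 but clear of the Cd47f/f values. Nek2, which separates centrosomes, and Cdca3, a trigger of mitotic entry, were called with log2 fold changes of 1.52 ± 0.22 and 1.96 ± 0.22.

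The chromosomal passenger complex, which corrects faulty attachments and later directs cytokinesis, rose in all 4 subunits. Aurkb, its kinase, was at 24.2 and 21.8 TPM in Cd47ΔT T cells, against 4.79 and 6.64 TPM in Cd47f/f T cells (log2 fold change 1.85 ± 0.21, adjusted p = 0.00784). Birc5, which encodes survivin, was at 74.9 and 62.2 TPM in Cd47ΔT T cells, against 13.6 and 18.0 TPM in Cd47f/f T cells. Incenp, the scaffold of the complex, was at 32.9 and 29.2 TPM in Cd47ΔT T cells, against 11.4 and 15.4 TPM in Cd47f/f T cells (log2 fold change 1.16 ± 0.20, adjusted p = 0.0200). The scaffold thus separated the genotypes by a smaller ratio, 2.31, than the kinase, 4.02, and had the highest Cd47f/f level of the complex after Birc5. Cdca8, which encodes borealin, had a ratio of 4.31.

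Spindle checkpoint genes were called higher in 4 of 4 cases. Bub1b, whose product BUBR1 inhibits the anaphase-promoting complex, was at 21.4 and 16.4 TPM in Cd47ΔT T cells, against 3.42 and 5.55 TPM in Cd47f/f T cells (log2 fold change 1.88 ± 0.27, adjusted p = 0.0127). Mad2l1, which encodes the checkpoint effector MAD2, was at 45.2 and 40.4 TPM in Cd47ΔT T cells, against 18.3 and 20.7 TPM in Cd47f/f T cells (log2 fold change 1.10 ± 0.16, adjusted p = 0.0128). Mad2l1 was thus the most abundant of the 4 in both genotypes and changed least. Ttk, the kinase MPS1 that starts checkpoint signalling, was the lowest of all 39 genes, at 5.21 and 4.57 TPM in Cd47ΔT T cells, against 0.62 and 1.21 TPM in Cd47f/f T cells. At such levels the log2(TPM + 1) scale understates a change, and the log2 fold change of Ttk was 1.64 while its ratio of means was 5.34. Bub1, the kinase that recruits checkpoint proteins to kinetochores, had a ratio of 4.87.

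At the centromere and kinetochore 5 of 6 genes were called higher. Cenpa, the histone H3 variant that marks centromeres, had the highest level of the set in Cd47f/f T cells, at 79.2 and 77.7 TPM in Cd47ΔT T cells, against 35.6 and 43.0 TPM in Cd47f/f T cells (log2 fold change 0.99 ± 0.14, adjusted p = 0.0135). Ndc80, a subunit of the complex that grips microtubules, was at 17.5 and 13.6 TPM in Cd47ΔT T cells, against 6.07 and 9.17 TPM in Cd47f/f T cells (log2 fold change 0.95 ± 0.25, adjusted p = 0.0723). Ndc80 was the gene of the set that was not called, although its genotypes did not overlap. Its partners in the same complex, Nuf2 and Spc25, were called with ratios of 4.75 and 3.92. The kinetochore motor Cenpe and the kinetochore protein Cenpf were called with ratios of 3.66 and 5.45, the second being the largest ratio of the 39.

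Spindle motors and microtubule proteins were called higher in 6 of 6 cases, with log2 fold changes of 1.58 to 2.03. Kif11, the kinesin that pushes spindle poles apart, was at 26.5 and 22.7 TPM in Cd47ΔT T cells, against 4.59 and 6.54 TPM in Cd47f/f T cells (log2 fold change 1.98 ± 0.22, adjusted p = 0.00773). Tpx2, which activates Aurora A on spindle microtubules, was at 20.4 and 18.5 TPM in Cd47ΔT T cells, against 3.65 and 6.13 TPM in Cd47f/f T cells. Both genes kept the genotypes apart, with Cd47f/f library 2 above library 1. The remaining genes were Kif2c, a microtubule depolymerase, Kif4, a chromosome-bound kinesin, Nusap1, a bundling protein, and Hmmr, a spindle assembly factor, with ratios of 3.98, 4.69, 4.56 and 4.33.

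Central spindle genes were called higher in 3 of 3 cases. Kif20a, a kinesin that carries the passenger complex to the midzone, was at 14.0 and 12.0 TPM in Cd47ΔT T cells, against 3.97 and 4.84 TPM in Cd47f/f T cells (log2 fold change 1.38 ± 0.21, adjusted p = 0.0151). Kif23, the kinesin of the centralspindlin complex, was at 15.9 and 14.1 TPM in Cd47ΔT T cells, against 5.73 and 7.52 TPM in Cd47f/f T cells (log2 fold change 1.08 ± 0.21, adjusted p = 0.0295). Neither gene overlapped between genotypes, and Kif23 was among the genes with the smallest ratios, at 2.26. Prc1, which bundles midzone microtubules, had a ratio of 4.30.

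The genes of anaphase and mitotic exit were called higher in 3 of 3 cases and held the largest log2 fold change of the set. Cdc20, the activator of the anaphase-promoting complex, was at 30.4 and 27.6 TPM in Cd47ΔT T cells, against 9.12 and 11.6 TPM in Cd47f/f T cells. Ube2c, the ubiquitin-conjugating enzyme of that complex, was at 79.6 and 59.2 TPM in Cd47ΔT T cells, against 11.0 and 15.7 TPM in Cd47f/f T cells (log2 fold change 2.30 ± 0.23, adjusted p = 0.00544). Espl1, which encodes separase, was at 5.34 and 5.02 TPM in Cd47ΔT T cells, against 0.76 and 1.27 TPM in Cd47f/f T cells. Ube2c was higher in Cd47ΔT library 1 than in library 2, yet its lower Cd47ΔT value was well above both Cd47f/f values.

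Genes of chromosome structure were called higher in 5 of 5 cases. Top2a, the topoisomerase that untangles sister chromatids, had the highest level of the set in Cd47ΔT T cells, at 102 and 88.7 TPM, against 14.8 and 27.3 TPM in Cd47f/f T cells (log2 fold change 2.19 ± 0.28, adjusted p = 0.00992). Mki67 (ENSMUSG00000031004, chromosome 7, 135689784 to 135716361, minus strand), which encodes the proliferation antigen Ki-67 that coats mitotic chromosomes, was at 41.0 and 44.3 TPM in Cd47ΔT T cells, against 6.19 and 13 TPM in Cd47f/f T cells (log2 fold change 2.12 ± 0.31, adjusted p = 0.0140). Ncapd2, a condensin I subunit, was at 55.3 and 57.1 TPM in Cd47ΔT T cells, against 22 and 28.2 TPM in Cd47f/f T cells (log2 fold change 1.14 ± 0.17, adjusted p = 0.0133). For Top2a and Mki67 the Cd47f/f libraries lay far from each other, with library 2 the higher, but the genotypes did not overlap. Ncapg, another condensin I subunit, and Cdca5, sororin, which protects cohesion, had ratios of 4.40 and 4.73.

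The libraries within a genotype also moved together over the set. Cd47f/f library 2 was above library 1 for 35 of the 39 genes, with a median ratio of 1.39, and Cd47ΔT library 1 was above library 2 for 34. Even so, for 33 genes the lower Cd47ΔT value was at least 2 times the higher Cd47f/f value, and the smallest such ratio was 1.48. The 6 smallest ratios of group means were those of Cenpa (2.0), Ndc80 (2.04), Mad2l1 (2.19), Ncapd2 (2.24), Kif23 (2.26) and Incenp (2.31), and 4 of these 6 were among the 7 genes with the highest Cd47f/f levels. The rest of those 7, Top2a, Birc5 and Cdk1, had ratios of 4.54, 4.35 and 4.51. Ube2c, next in level at a Cd47f/f mean of 13.4 TPM, had a ratio of 5.19. The Cd47f/f level is also the divisor of the ratio, and a link of level to effect was not tested. Leaving out Cd47ΔT library 1 left 32 genes called, with Aurka, Cenpa, Incenp, Kif20a, Kif23, Mad2l1 and Ndc80 not called. Leaving out Cd47ΔT library 2 left 37, leaving out Cd47f/f library 1 left 36, and leaving out Cd47f/f library 2 left all 39. Of the 39 genes, 9 overlap a protein-coding gene on the opposite strand, and the sources used here do not say whether reads were counted by strand.

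**Figure D3:**
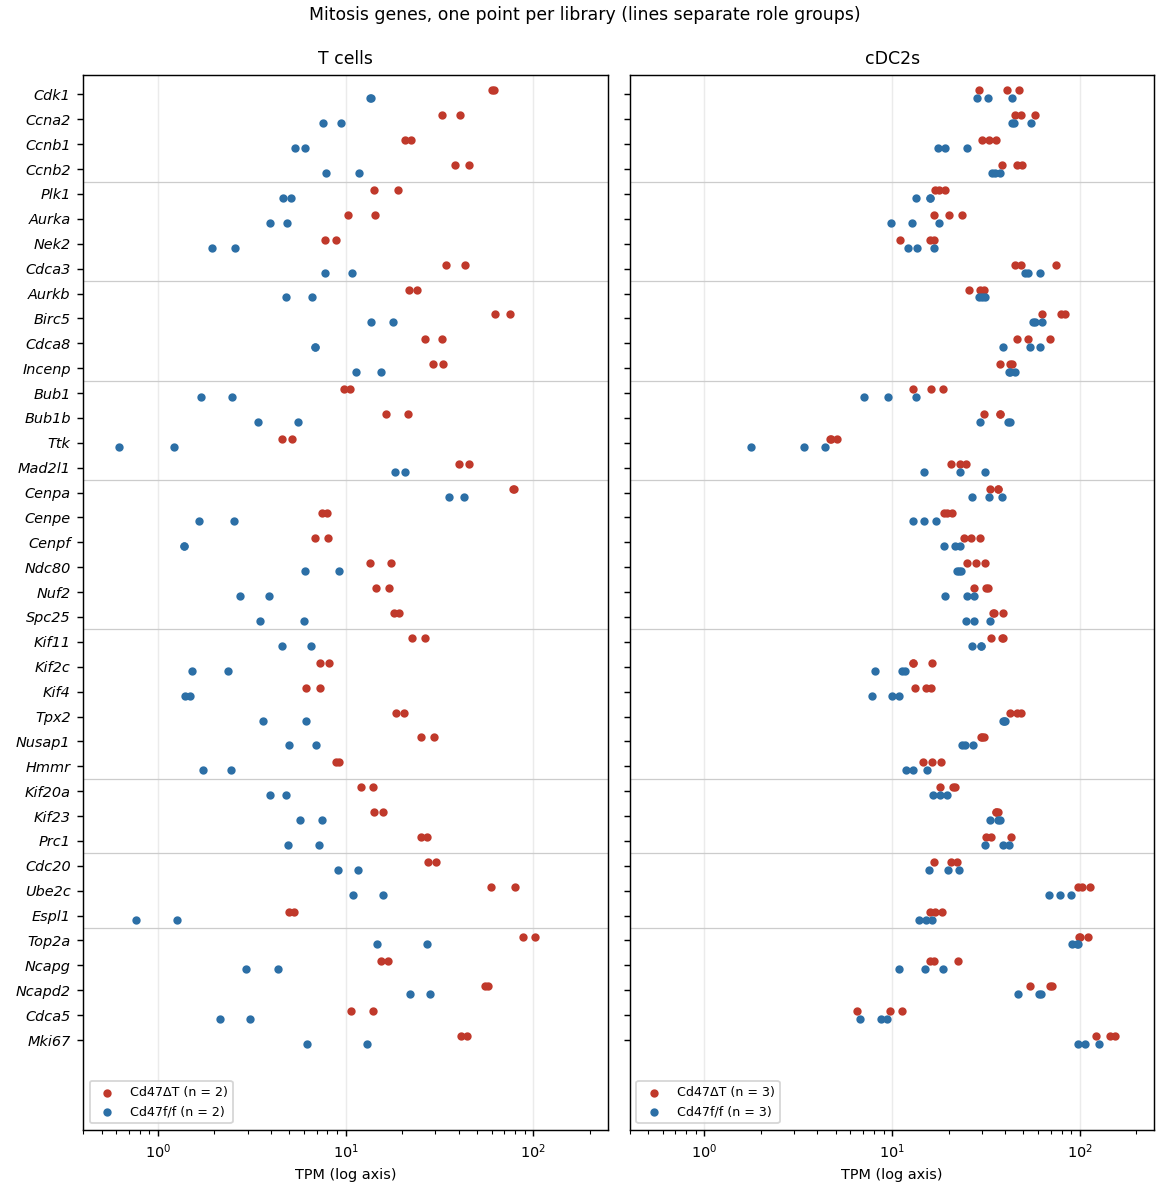
TPM of each mitosis gene (rows, by role) on a log axis, 1 point per library, in T cells (left) and cDC2s (right), with Cd47ΔT in red above Cd47f/f in blue. In T cells the 39 genes show red points to the right of blue points without overlap, and in cDC2s 17 genes do.

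Other gene lists of the cell cycle moved to different extents in T cells. Of 76 further mitosis genes (kinetochore, condensin, spindle and cytokinesis genes), 50 were called higher and 0 lower, with a median log2 fold change of 1.25. Pbk, a mitotic kinase, was at 14.7 and 12.5 TPM in Cd47ΔT T cells, against 2.50 and 2.72 TPM in Cd47f/f T cells. By contrast, of 26 genes for division machinery that cells carry throughout the cycle (anaphase-promoting complex subunits, cohesin and its loaders), 0 were called in either direction, and their median was 0.10, the value of all genes. The largest was Anapc11, at 72.6 and 69.9 TPM in Cd47ΔT T cells, against 50.2 and 50.03 TPM in Cd47f/f T cells (log2 fold change 0.50, adjusted p = 0.0578), and 2 of the 26 had an unadjusted p under 0.05. The NF-Y box and CHR shares of this machinery list, 36.4% and 18.2% of 22 windows, were near those of all genes.

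Among 21 regulators of mitosis gene transcription, 6 were called higher and 0 lower, with a median of 0.25. Foxm1, an activator of G2 and mitosis genes, was at 15.0 and 14.3 TPM in Cd47ΔT T cells, against 2.78 and 4.33 TPM in Cd47f/f T cells (log2 fold change 1.80 ± 0.24, adjusted p = 0.0111). E2f1, an activator of the G1/S transition, was at 10.5 and 11.0 TPM in Cd47ΔT T cells, against 2.03 and 2.89 TPM in Cd47f/f T cells. The others were E2f2, E2f7, E2f8 and Tfdp1, of which E2f7 and E2f8 encode repressors. Mybl2, which encodes B-MYB, was at 7.02 and 6.32 TPM in Cd47ΔT T cells, against 1.63 and 3.70 TPM in Cd47f/f T cells, and was not called (adjusted p = 0.0858). Of 31 genes of G1/S and DNA replication, 18 were called higher and 0 lower, with a median of 0.92, led by the nucleotide synthesis genes Rrm2 and Tk1 at log2 fold changes of 2.02 and 1.80. Among 16 tested CDK inhibitors and antiproliferative genes 4 were called higher and 1 lower. Cdkn2c, an inhibitor of CDK4 and CDK6, was at 32.9 and 26.7 TPM in Cd47ΔT T cells, against 8.47 and 10.9 TPM in Cd47f/f T cells. Btg1, an antiproliferative gene of resting lymphocytes, fell to 183 and 179 TPM in Cd47ΔT T cells, against 284 and 279 TPM in Cd47f/f T cells (log2 fold change -0.64 ± 0.10, adjusted p = 0.0156).

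Markers of other cells moved with genotype in the same T cell libraries. For 10 of 11 such marker lists the summed level was higher in both Cd47ΔT libraries than in both Cd47f/f libraries, while the sum of 11 T cell markers was 8597 and 7835 TPM in Cd47ΔT T cells and 8655 and 8437 TPM in Cd47f/f T cells, with 0 of 11 called. The macrophage and monocyte list, 12 of 12 called higher, summed to 2112 and 2413 TPM in Cd47ΔT T cells, against 647 and 831 TPM in Cd47f/f T cells, and T cells themselves express its most abundant gene, Ly6c2. The plasma cell list, 7 of 8 called higher, summed to 422 and 459 TPM in Cd47ΔT T cells, against 101 and 119 TPM in Cd47f/f T cells. The NK cell list, 7 of 8 called higher, summed to 204 and 335 TPM in Cd47ΔT T cells, against 48.2 and 72.9 TPM in Cd47f/f T cells. Gzma and Eomes made up most of the NK cell sum. The median of that list was 13.3 and 25.2 TPM in Cd47ΔT T cells, against 2.06 and 1.96 TPM in Cd47f/f T cells. These lists were each several times higher in the Cd47ΔT libraries. The B cell list (6 of 7 tested called higher) summed to 66.5 and 145 TPM in Cd47ΔT T cells and to 17.5 and 21.5 TPM in Cd47f/f T cells. The erythroid precursor list (4 of 10 tested) summed to 129 and 229 TPM in Cd47ΔT T cells and to 60.6 and 53.5 TPM in Cd47f/f T cells. The neutrophil list (5 of 7 tested) summed to 41.2 and 116 TPM in Cd47ΔT T cells and to 5.0 and 11.1 TPM in Cd47f/f T cells. All 7 tested genes had a log2 fold change above 0. S100a9 was at 13.7 and 43.6 TPM in Cd47ΔT T cells, against 1.11 and 2.32 TPM in Cd47f/f T cells. Elane was at 7.56 and 12.9 TPM in Cd47ΔT T cells, against 1.78 and 3.01 TPM in Cd47f/f T cells. Ly6g was at 0 in every library of both cell types. The cDC2 list, with 8 of 10 tested genes called higher and 1 lower, summed to 282 and 382 TPM in Cd47ΔT T cells, against 195 and 222 TPM in Cd47f/f T cells. Much of that sum was Cd4, which helper T cells also express and which fell to 108 and 60.2 TPM in Cd47ΔT T cells, against 170.1 and 190 TPM in Cd47f/f T cells. The 8 genes called higher had ratios of group means from 2.25 to 12.7, and the median ratio over the 10 tested genes was 6.09. The MHC class II gene H2-Aa was at 65.2 and 132 TPM in Cd47ΔT T cells, against 7.51 and 9.52 TPM in Cd47f/f T cells. The CD47 receptor gene Sirpa was at 15.6 and 28.3 TPM in Cd47ΔT T cells, against 1.91 and 2.78 TPM in Cd47f/f T cells. Both genes were far higher in the Cd47ΔT libraries, and higher in library 2 than in library 1. The cDC1 list (4 of 5 tested called higher, median ratio 10.2) summed to 48.5 and 58.2 TPM in Cd47ΔT T cells and to 25.1 and 37.9 TPM in Cd47f/f T cells, mostly from Itgae, which was not called. The plasmacytoid dendritic cell list (2 of 7) summed to 216 and 241 TPM in Cd47ΔT T cells and to 183 and 184 TPM in Cd47f/f T cells. Bst2, Ccr9 and Pacsin1 made up most of it. Of its 7 genes, 5 had a log2 fold change above 0 and 2, Ccr9 and Pacsin1, were below 0. The progenitor list (1 of 3 tested) summed to 7.92 and 13.3 TPM in Cd47ΔT T cells and to 2.05 and 3.16 TPM in Cd47f/f T cells. All 3 tested genes had a log2 fold change above 0, and Pf4 was at 0 in every library of both cell types. The germinal centre B cell list, a strongly dividing cell type, summed to 40.5 and 39.7 TPM in Cd47ΔT T cells and to 36.9 and 39.99 TPM in Cd47f/f T cells, with 0 of 3 tested genes called. For 10 of the 11 lists the sum was higher in Cd47ΔT library 2 than in library 1, and the sum of the mitosis genes was 1.13 times higher in library 1. Genes within a list did not all follow its sum. The plasma cell sum was mostly Jchain, at 309 and 345 TPM in Cd47ΔT libraries 1 and 2, while the median of that list was 8.76 and 8.04 TPM. The part of these other cells in the mitosis gene result was not tested.

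**Figure D4:**
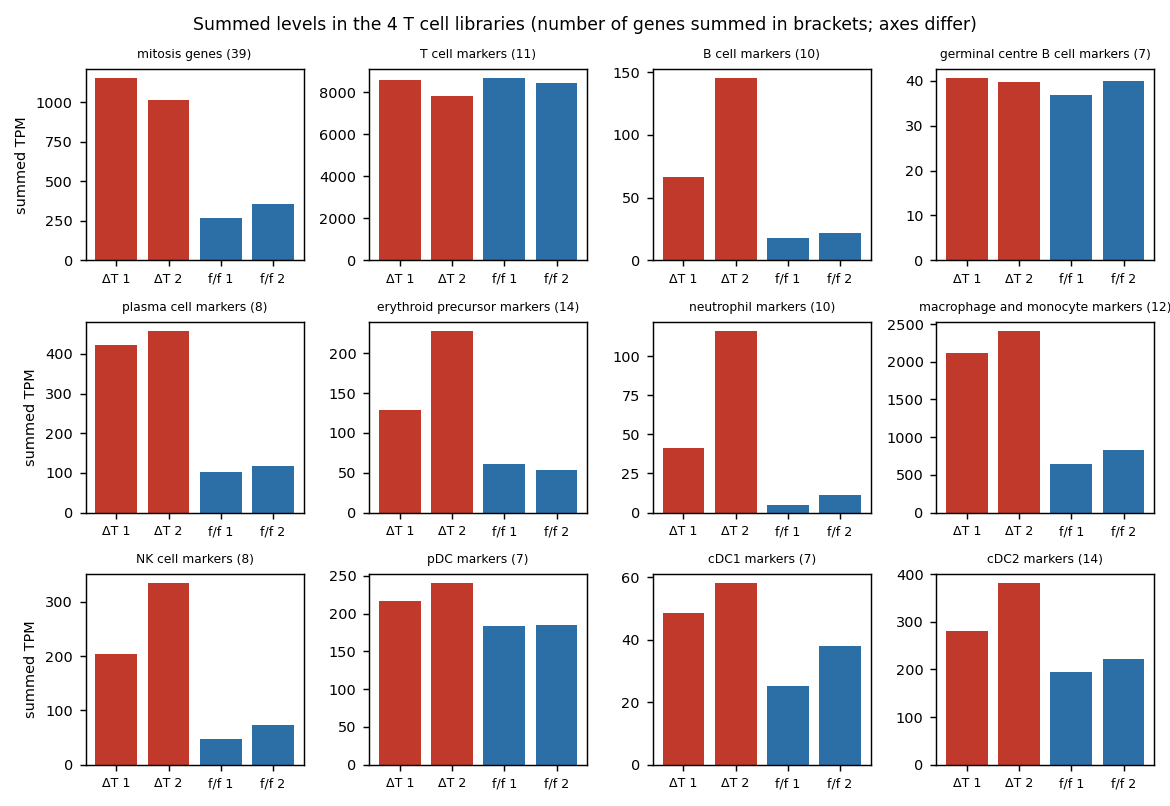
Summed TPM of the 39 mitosis genes and of 11 marker lists in each T cell library, 1 bar per library, Cd47ΔT in red and Cd47f/f in blue, each panel with its own axis from 0. The 11 lists shown are the T cell list and the lists of other cells except the progenitor list. In Cd47ΔT libraries 1 and 2 the mitosis sum is 1152 and 1018 TPM, and the sum of the NK cell markers is 204 and 335 TPM.

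In cDC2s no mitosis gene was called between genotypes, and the differences were small. By limma, 0 of 39 were called in either direction, where 0.249% of the 12058 genes tested were called higher and 0.381% lower (0.630% in all), and 11 of 39 had an unadjusted p under 0.05, all higher in Cd47ΔT cDC2s, against 4.39% of all genes in that direction and 13.4% in either. The median log2 fold change was 0.24, against -0.07 for all genes, with a range from -0.08 for Bub1b to 0.67 for Ccnb1. Of the 39, 34 (87.2%) were above 0, against 39.3% of all genes, and 17 (43.6%) had all Cd47ΔT values above all Cd47f/f values, against 6.38% of all genes, while 0 were separated in the other direction, against 13.5%. Summed over the set, the level was 1403, 1456 and 1528 TPM in Cd47ΔT cDC2s, against 1212, 1320 and 1231 TPM in Cd47f/f cDC2s. Without Cd47f/f library 3, which stood apart, 0 were called, the median was 0.25 and 34 were above 0 (40.9% of all genes). In that setting 18 were separated upward (11.0% of all genes) and 1 downward (19.5%), and 5 had an unadjusted p under 0.05, all higher in Cd47ΔT cDC2s (4.35% of all genes). No gene reached a 2-fold ratio of means.

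Ccnb1 showed the largest difference of the 39 in cDC2s, at 30.3, 32.7 and 36.0 TPM in Cd47ΔT mice, against 17.5, 25 and 19.0 TPM in Cd47f/f mice (log2 fold change 0.67 ± 0.17, adjusted p = 0.134). Its partner Cdk1 was at 47.2, 29.2 and 41.2 TPM in Cd47ΔT cDC2s, against 28.4, 32.6 and 43.8 TPM in Cd47f/f cDC2s. Ccna2 was at 45.4, 48.6 and 57.9 TPM in Cd47ΔT cDC2s, against 44.6, 54.8 and 43.5 TPM in Cd47f/f cDC2s. The genotypes were apart for Ccnb1 and overlapped for Cdk1 and Ccna2. Plk1 was at 17.0, 17.8 and 19.1 TPM in Cd47ΔT cDC2s, against 15.8, 15.8 and 13.3 TPM in Cd47f/f cDC2s, close together but without overlap.

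In the passenger complex Aurkb was at 30.7, 29.4 and 25.8 TPM in Cd47ΔT cDC2s, against 30.2, 31.4 and 29.0 TPM in Cd47f/f cDC2s. Incenp was at 37.6, 42.2 and 43.3 TPM in Cd47ΔT cDC2s, against 42.7, 45.3 and 41.9 TPM in Cd47f/f cDC2s. Birc5 was at 63.0, 83.4 and 79.3 TPM in Cd47ΔT cDC2s, against 62.7, 57.9 and 56.0 TPM in Cd47f/f cDC2s. Aurkb and Incenp overlapped between genotypes with log2 fold changes of -0.08 each, signs that turn with quantile scaling, and Birc5 was separated by a narrow margin, with a log2 fold change of 0.34 ± 0.13. Of the checkpoint genes, Bub1 was at 16.1, 12.9 and 18.7 TPM in Cd47ΔT cDC2s, against 7.09, 9.53 and 13.5 TPM in Cd47f/f cDC2s (log2 fold change 0.64 ± 0.25, adjusted p = 0.322). Bub1b was at 37.5, 37.8 and 30.7 TPM in Cd47ΔT cDC2s, against 29.4, 42.4 and 41.5 TPM in Cd47f/f cDC2s. Mad2l1 was at 20.6, 23.0 and 24.9 TPM in Cd47ΔT cDC2s, against 14.9, 23.0 and 31.1 TPM in Cd47f/f cDC2s. These 3 genes overlapped between genotypes, and the Cd47f/f values of Mad2l1 spread on both sides of the Cd47ΔT values.

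Kinetochore and spindle genes held many of the separated cases, but none was called. Ndc80 was at 25.1, 31.4 and 27.9 TPM in Cd47ΔT cDC2s, against 23.2, 22.7 and 22.2 TPM in Cd47f/f cDC2s. Cenpa was at 36.8, 36.7 and 33.4 TPM in Cd47ΔT cDC2s, against 32.6, 38.4 and 26.5 TPM in Cd47f/f cDC2s. Ndc80 was thus separated and Cenpa was not. Kif11 was at 33.8, 38.6 and 39.0 TPM in Cd47ΔT cDC2s, against 29.8, 29.8 and 26.7 TPM in Cd47f/f cDC2s. Kif4 was at 16.2, 13.2 and 15.2 TPM in Cd47ΔT cDC2s, against 10.8, 7.77 and 9.98 TPM in Cd47f/f cDC2s (log2 fold change 0.60 ± 0.19, adjusted p = 0.227). Tpx2 was at 48.5, 42.7 and 46.6 TPM in Cd47ΔT cDC2s, against 38.9, 39.3 and 39.8 TPM in Cd47f/f cDC2s. All 3 of these spindle genes were separated between genotypes, Kif4 by the largest ratio of the 3, 1.56.

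Later steps showed the same small differences. Kif20a was at 18.1, 21.2 and 21.7 TPM in Cd47ΔT cDC2s, against 16.6, 19.6 and 18.0 TPM in Cd47f/f cDC2s, and overlapped. Cdc20 was at 16.7, 20.5 and 22.3 TPM in Cd47ΔT cDC2s, against 15.7, 22.8 and 19.9 TPM in Cd47f/f cDC2s, and overlapped. Ube2c was at 102, 97.8 and 114 TPM in Cd47ΔT cDC2s, against 78.3, 90.0 and 68.5 TPM in Cd47f/f cDC2s (log2 fold change 0.41 ± 0.13, adjusted p = 0.222). Ube2c was separated between genotypes and was, with Mki67 and Top2a, among the most abundant of the set. Espl1 was at 16.9, 16.0 and 18.4 TPM in Cd47ΔT cDC2s, against 13.9, 16.4 and 15.1 TPM in Cd47f/f cDC2s. Top2a was at 99.4, 111 and 99.8 TPM in Cd47ΔT cDC2s, against 91.1, 97.4 and 96.3 TPM in Cd47f/f cDC2s. Mki67 was at 122, 155 and 145 TPM in Cd47ΔT cDC2s, against 107, 126 and 98.5 TPM in Cd47f/f cDC2s. Espl1 and Mki67 overlapped between genotypes, and Top2a did not, although its log2 fold change was 0.12 ± 0.09. Ncapd2 was at 69.2, 54.2 and 71.0 TPM in Cd47ΔT cDC2s, against 62.1, 60.9 and 46.6 TPM in Cd47f/f cDC2s, with overlap.

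The wider lists showed no called gene in cDC2s either. Of the 76 further mitosis genes, the 26 machinery genes, the 21 regulators, the 17 tested CDK inhibitors and antiproliferative genes and the 31 G1/S genes, 0 were called, and the medians were 0.16, -0.03, 0.07, -0.11 and 0.13. Only 0.630% of the 12058 genes tested were called in cDC2s, so 0 is near the share of all genes. T cell markers summed to between 19.4 and 23.6 TPM in Cd47ΔT cDC2s and to between 15.0 and 23.4 TPM in Cd47f/f cDC2s, and NK cell markers to at most 1.20 TPM in Cd47ΔT cDC2s and 1.33 TPM in Cd47f/f cDC2s. Other lists were separated between genotypes, with lower sums in Cd47ΔT cDC2s. B cell markers summed to between 122 and 170 TPM in Cd47ΔT cDC2s, against between 221 and 274 TPM in Cd47f/f cDC2s, mostly from Cd22. Plasma cell markers summed to between 83.4 and 108 TPM in Cd47ΔT cDC2s, against between 119 and 128 TPM in Cd47f/f cDC2s. Most of that sum was Xbp1 and Irf4, and Irf4 is also on the cDC2 list. Germinal centre B cell markers summed to between 60.6 and 71.3 TPM in Cd47ΔT cDC2s, against between 72.5 and 73.6 TPM in Cd47f/f cDC2s. Bcl6 made up most of that sum. Of these 3 lists 0 genes were called. Car2, of the erythroid list, was called higher, at 20.6, 20.95 and 36.6 TPM in Cd47ΔT cDC2s, against 7.05, 8.23 and 8.16 TPM in Cd47f/f cDC2s (adjusted p = 0.0411). The list of 14 cDC2 markers was also separated downward, mostly from H2-Aa and H2-Ab1, which were not called. It summed to between 16000 and 16290 TPM in Cd47ΔT cDC2s, against between 17050 and 21230 TPM in Cd47f/f cDC2s. Of the 14 markers, 3 were called lower in Cd47ΔT cDC2s, namely Itgam, Cd209a and Cd4. The part of these markers in the small mitosis gene differences was not tested.

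The genotype effect was then compared between the cell types, as the effect in T cells minus the effect in cDC2s, by limma's interaction test. The difference was called for 30 of the 39 genes, with the larger effect in T cells, where 5.40% of the 10650 genes tested were called in that direction, 0.300% in the other and 5.70% in all. All 39 differences were above 0, against 70.7% of all genes, and 38 had an unadjusted p under 0.05, against 14.3% of all genes in that direction and 15.8% in either. The median difference was 1.49 on the log2 scale, against 0.19 for all genes, and ran from 0.66 for Ndc80 to 2.07 for Top2a. The T cell and cDC2 libraries came from different kits, so what differs here is the genotype effect as each kit measured it.

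The largest differences were those of Top2a (2.07, adjusted p = 0.00140), Prc1 (2.01, adjusted p = 0.00185) and Cdca3 (1.96, adjusted p = 0.00352). Bub1b (1.96), Cdk1 (1.94), Aurkb (1.93) and Ccna2 (1.90) followed, all genes whose cDC2 values overlapped between genotypes. Ccnb1 was called with a smaller difference, 1.07 (adjusted p = 0.0343) and had the largest cDC2 effect of the set. That call was lost in 12 of the alternative settings tried. The 9 genes not called were Aurka (0.72), Bub1 (1.22), Ttk (1.10), Mad2l1 (1.05), Cenpa (0.84), Ndc80 (0.66), Kif2c (1.17), Kif4 (1.07) and Ncapd2 (0.95). These include both genes with small T cell effects, such as Cenpa, and genes with large cDC2 effects, such as Bub1. With quantile scaling 19 genes were called, and with Cd47ΔT T cell library 1 left out 17 were. Among the other lists, 21 of 76 further mitosis genes were called with a larger effect in T cells, 0 of 26 machinery genes, 3 of 21 regulators and 7 of 31 G1/S genes.

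**Figure D5:**
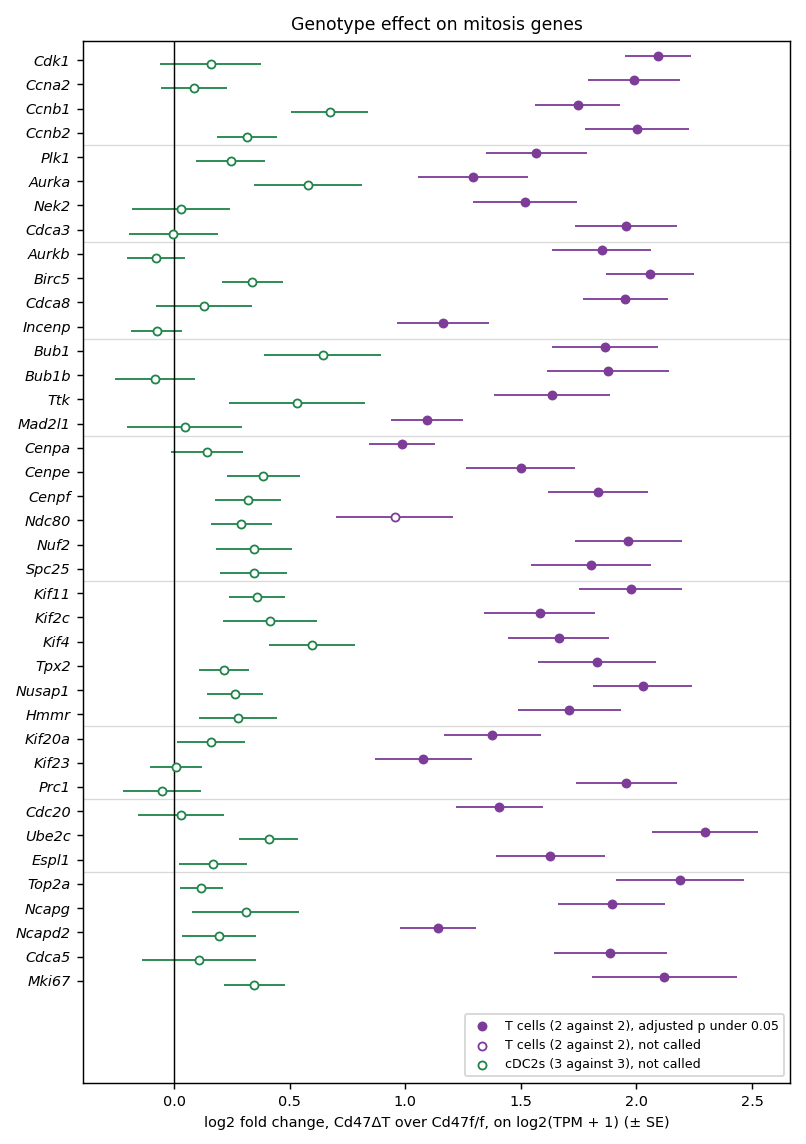
Log2 fold change (Cd47ΔT over Cd47f/f, ± SE) of each mitosis gene in T cells (purple, 2 against 2 libraries) and cDC2s (green, 3 against 3), with filled points for adjusted p under 0.05. T cell points run from 0.95 to 2.30 and are filled except for Ndc80, and cDC2 points run from -0.08 to 0.67 and are all open.

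Levels differed between the groups as well as effects. The median gene of the set stood at 19.5 TPM in Cd47ΔT T cells, against 5.71 TPM in Cd47f/f T cells, and at 30.4 TPM in Cd47ΔT cDC2s, against 25.1 TPM in Cd47f/f cDC2s. Of the 39 genes, 37 were lower in both Cd47f/f T cell libraries than in all 3 Cd47f/f cDC2 libraries, against 31.9% of the 10650 genes tested in both cell types, and 0 were higher in both, against 38.9%. In Cd47ΔT mice 27 were lower in both T cell libraries than in all 3 cDC2 libraries, against 27.3% of all genes, and 4 were higher, against 49.4%. Ttk was the lowest of the set in each group, at a mean of 4.89 TPM in Cd47ΔT T cells, 0.915 TPM in Cd47f/f T cells, 4.83 TPM in Cd47ΔT cDC2s and 3.18 TPM in Cd47f/f cDC2s. The most abundant gene was Top2a in Cd47ΔT T cells (95.5 TPM), Cenpa in Cd47f/f T cells (39.3 TPM) and Mki67 in cDC2s of both genotypes (141 TPM in Cd47ΔT and 110 TPM in Cd47f/f). No test was made between cell types, since the kits differ.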

How the data were processed

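RNeasy mini columns were used for T cells and RNeasy micro columns for cDC2s, per the labels' protocols. The authors deposited TPM for 45706 Ensembl genes in 10 libraries, made with STAR and RSEM on GRCm38, per the submitters' processing notes, which also name DESeq2. Counts were not used here, so neither a count model nor counting intervals were possible. GENCODE M21 matched 45143 identifiers (98.8%). Testing covered genes that reached 1 TPM in at least 2 T cell or 3 cDC2 libraries, and was done on log2(TPM + 1) with limma 3.58.1 (lmFit, eBayes with trend; R 4.3.3) on genotype alone, leaving 2 and 4 residual degrees of freedom. The interaction came from 1 fit of all libraries over genes passing both filters. p-values were adjusted by Benjamini-Hochberg over all genes tested. Values in every library are given for 20 fixed genes, the 3 highest and 3 lowest effects per cell type and odd calls; a few further genes are named by role, and genes of other lists after their values were seen. The mitosis genes, the lists and the tests were chosen with earlier results of these data known. The steps were checked on simulated data. Alternatives were other pseudocounts, filters, scalings and variance trends, a replicate block, 1 fit of all libraries and leaving out each library. Promoters were read with Python 3.11.15 and pandas 2.3.3.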

Additional observations from a re-analysis of the deposited data

Results flagged for a closer look

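The genotype effect differed between T cells and cDC2s, by limma's interaction test on log2(TPM + 1) with an adjusted p under 0.05, for 30 mitosis genes, each with the larger effect in T cells. Of the genes followed in every library, the difference (T cells minus cDC2s) was 1.94 for Cdk1, 1.90 for Ccna2 and 1.07 for Ccnb1 among the cyclins and their kinase, and 1.32 for Plk1 and 1.96 for Cdca3 among the entry genes. In the passenger complex it was 1.93 for Aurkb, 1.72 for Birc5 and 1.24 for Incenp, and in the checkpoint 1.96 for Bub1b. Among spindle and midzone genes it was 1.62 for Kif11, 1.61 for Tpx2, 1.22 for Kif20a and 2.01 for Prc1. For the genes of anaphase and exit it was 1.38 for Cdc20, 1.89 for Ube2c and 1.46 for Espl1, and for chromosome structure 2.07 for Top2a and 1.77 for Mki67. The T cell and cDC2 effects come from different library kits, and the part of the kit was not tested. Groups of 2 and 3 libraries are too small for a test of single outlying libraries.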

How the results depend on the processing

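Of the 39 mitosis genes, 0 were called lower in any comparison under any alternative. In T cells 1 gene was called higher with no filter and between 37 and 39 with the other settings that keep all libraries. The T cell median log2 fold change was 2.08 with a pseudocount of 0.1, 1.19 with a pseudocount of 5 and 1.52 with quantile scaling. Scaling moved the median of all genes in T cells from 0.10 to -0.04 (median-of-ratios), -0.08 (quantile) and 0.07 (protein-coding genes), and the mitosis gene median to 1.70, 1.52 and 1.82. In cDC2s 0 genes were called under every alternative, and the median was 0.33 with quantile and 0.32 with median-of-ratios scaling. The interaction was called for 19 genes with quantile scaling. Leaving out 1 library at a time gave 32 to 39 genes called in T cells, 0 in cDC2s and 17 to 33 for the interaction. Of the genes followed in every library, the sign of the cDC2 effect turned for Aurkb (0.0113), Incenp (0.0155) and Bub1b (0.0206) with quantile scaling and for Incenp with median-of-ratios scaling (0.0033). With a library left out it turned for 4 genes, whose effects then ran from -0.25 to 0.0144 for Bub1b (above 0 without Cd47f/f library 2 or Cd47ΔT library 3) and from -0.22 to 0.29 for Mad2l1 and -0.11 to 0.15 for Cdc20 (both below 0 without Cd47f/f library 1 or Cd47ΔT library 3). That of Ccna2 was -0.012 without Cd47ΔT library 3 and ran up to 0.19 otherwise. None of these cDC2 effects was called, and the cause was not tested.

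Calls over all genes moved more. In T cells they were 1167 with the settings used, 15 with no filter, 758 when genes had to reach 5 TPM, 725 without Cd47f/f library 1 and 2296 with the replicate block. In cDC2s they were 76, but 6 with no filter, 12 with no variance trend, 171 with 1 fit of all libraries, 4 with the replicate block and 0 to 14 with a library left out. For the interaction they were 607, but 949 with no filter, 395 when genes had to reach 5 TPM, and 302 to 380 without a Cd47ΔT T cell library or Cd47f/f T cell library 1. The split of calls moved with scaling. In T cells 672 of 999 calls were higher with quantile and 946 of 1210 with median-of-ratios scaling, against 1058 of 1167. In cDC2s 37 of 74, 40 of 75 and, with protein-coding scaling, 35 of 66 were higher, against 30 of 76. For the interaction 332 of 416 and 417 of 494 were higher, against 575 of 607. Same-numbered libraries deviated from their group means with a correlation of 0.19 in T cells. With 2 libraries per genotype both T cell pairs must share that value, and differently numbered libraries its negative, -0.19. In cDC2s same-numbered libraries had -0.04, 0.06 and 0.12, against -0.14 to 0.12 for differently numbered ones. The numbers are therefore not taken to pair the libraries. With the replicate number as a block, 39 mitosis genes were called in T cells, 0 in cDC2s and 28 for the interaction. The T cell block fit left 1 residual degree of freedom and gave unadjusted limma p-values down to 4.59e-36. From 2 against 2 libraries such values cannot be relied on, so its counts of calls carry no weight. Where a T cell genotype keeps 1 library, the spread comes from the other genotype. Depth is unknown, so what it limits could not be set.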
